A study of Mus musculus with 2 samples.

Results

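Chemokines and their receptors were compared between mouse small intestinal epithelium grafted onto the colon and normal mouse colonic epithelium. Members were all singly named genes whose symbol was Ccl, Ccr, Cxcl, Cxcr, Cx3cl, Cx3cr, Xcl, Xcr or Ackr followed by a number, with any paralogue suffix, and Ccrl2. This rule took 54 of the 17305 genes measured, 33 ligands and 21 receptors. The graft was epithelium of the small intestine of an EGFP-transgenic mouse on the C57BL6 background, cultured for 7 days in the form of organoids, epithelial structures that keep stem cells. It was instilled into the colonic lumen of a C57BL6 recipient and collected 4 weeks later. The reference was colonic epithelium of a C57BL6 mouse that is described as a normal control. Both epithelia were cut out by laser microdissection, and the sections of a specimen were pooled. Each group was represented by 1 array, taken from the specimen with the best RNA integrity. The labels used here give neither the animals' ages nor the promoter of the EGFP transgene. Ungrafted small intestine was not analysed here, and the tissue of origin and the grafting cannot be told apart.

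Chemokines are small secreted proteins that guide leukocytes along gradients through G protein-coupled receptors, whereas the atypical receptors bind chemokines without classical G protein signalling and remove or redistribute them. In the gut, epithelial cells are themselves a source of chemokines. Ccl25 is known as the chemokine of the small intestine and thymus, and its receptor Ccr9 directs T cells and plasma cells to the small intestine. Ccl28 is known as a chemokine of mucosal epithelia including the colon, and its receptor Ccr10 is found on IgA plasma cells.

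All values below are log2 expression levels of the deposited table, and a difference is graft minus colon on that scale. With 1 array per group no test was possible, and every statement describes these 2 arrays. The available error is the spread between the 2 brightest probe sets of 1 gene. Their 2 differences varied from each other with an SD of 0.48 over 586 genes, or 0.34 for 1 probe set. Below, the SD between probe sets means the 0.48, which is wider than the 0.34 that applies to a single difference. Both probe sets of these genes reached the median level on at least 1 array, so the SD may not hold for low members. It leaves out variation between animals. A member was called higher or lower when it differed by at least 2-fold. No detection calls were used, so a level is described as low where it stayed under the median of all gene values, 5.48. Levels under the 20th percentile of an array, 4.75 for the graft and 4.74 for the colon, cannot be separated from background, and differences against levels near it may be understated.

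The promoters of the ligands with the largest differences, Ccl25, Ccl28 and Cxcl9, are printed below with that of Cxcl10, which lies close to Cxcl9 in the genome and had similar levels in both samples. They are the 250 bases before each start in RefSeq's table for GRCm38.p6, written 5′ to 3′ in the direction of the gene. Capitals mark matches, on either strand, to a GAS motif (TTCNNNGAA), an ISRE core (GAAANNGAA), an NF-kB motif (GGGANTTCC), a GATA motif (AGATAA or TGATAA), a CDX motif (TTTATG or TTTATT) or a TATA box (TATAAA).
Ccl25, first listed start, chr8:4324960-4325209, plus strand: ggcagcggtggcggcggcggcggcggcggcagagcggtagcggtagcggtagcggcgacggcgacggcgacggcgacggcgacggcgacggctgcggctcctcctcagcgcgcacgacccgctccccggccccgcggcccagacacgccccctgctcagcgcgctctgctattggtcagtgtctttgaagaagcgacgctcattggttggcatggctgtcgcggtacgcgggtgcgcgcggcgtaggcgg
Ccl25, second listed start, chr8:4349338-4349587, plus strand: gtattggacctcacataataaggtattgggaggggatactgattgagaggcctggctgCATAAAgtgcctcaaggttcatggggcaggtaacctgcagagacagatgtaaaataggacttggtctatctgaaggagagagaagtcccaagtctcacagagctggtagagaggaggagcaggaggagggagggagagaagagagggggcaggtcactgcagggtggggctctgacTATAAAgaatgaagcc
Ccl28, chr13:119623569-119623818, plus strand: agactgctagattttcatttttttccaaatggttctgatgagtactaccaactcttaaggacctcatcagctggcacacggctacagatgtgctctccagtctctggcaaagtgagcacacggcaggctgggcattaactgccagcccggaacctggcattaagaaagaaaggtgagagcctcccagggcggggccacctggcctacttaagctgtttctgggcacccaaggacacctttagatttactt
Cxcl9, chr5:92328080-92328329, minus strand: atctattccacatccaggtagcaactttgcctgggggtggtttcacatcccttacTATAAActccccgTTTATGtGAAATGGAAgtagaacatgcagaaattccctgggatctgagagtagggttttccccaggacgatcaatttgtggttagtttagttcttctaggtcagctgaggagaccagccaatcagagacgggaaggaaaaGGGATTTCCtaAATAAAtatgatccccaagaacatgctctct
Cxcl10, chr5:92348890-92349139, minus strand: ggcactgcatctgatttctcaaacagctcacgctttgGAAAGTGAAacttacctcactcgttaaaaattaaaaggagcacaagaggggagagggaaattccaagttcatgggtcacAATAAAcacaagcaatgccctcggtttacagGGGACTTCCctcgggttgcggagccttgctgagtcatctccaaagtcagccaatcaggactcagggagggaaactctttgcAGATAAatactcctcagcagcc

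The Cxcl9 window held an NF-kB match 42 to 34 bases before the start, an ISRE core match 175 to 167 bases before it, a TATA box match 195 to 190 bases before it and 2 CDX matches. The Cxcl10 window held an ISRE core match 213 to 205 bases before the start, an NF-kB match 103 to 95 bases before it, 1 GATA match and 1 CDX match. At its second listed start Ccl25 had a TATA box match 16 to 11 bases before the start and a CDX match 192 to 187 bases before it, whereas the first listed start and Ccl28 had none of the letters searched. None of these matches overlapped another. Among all 32851 promoter windows of this length, 1.43% held an NF-kB match, 7.13% an ISRE core, 7.02% a GAS motif, 12.4% a TATA box, 16.6% a GATA motif and 25.5% a CDX motif. A match describes letters in the window and is not a site of binding.

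Both samples carried the markers of their labels. All 5 small intestinal enterocyte markers, such as Fabp1 and Sis, were at 9.97 to 11.1 on the graft array and at 4.52 to 5.54 on the colon array. All 4 colonocyte markers, Car1, Slc26a3, Aqp8 and Tgm3, were at 4.51 to 6.76 in the graft against 8.55 to 11.7 in the colon. The 10 general epithelial markers had levels between 8.38 and 12.0 in the graft and between 8.93 and 11.7 in the colon, and 0 of them differed by 2-fold. Over 24074 probe sets the median was 5.44 on the graft array and 5.43 on the colon array.

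Most members of the chemokine system had low levels. Of the 54 members, 18 reached the median level on at least 1 array, 14 ligands and 4 receptors. Over all genes, 9392 of 17305 reached it on at least 1 array. Ccl25, Cxcl9 and the atypical receptor Ackr3 were higher in the graft by 2-fold or more, and Ccl28 and Ccl6 were lower by 2-fold or more. The 3 higher members are 5.56% of all 54, where 1.93% of all 17305 genes were 2-fold higher, and the 2 lower members are 3.7%, where 3.09% of all genes were 2-fold lower. The median difference was 0.060 over all members, 0.068 over the ligands and 0.044 over the receptors, against 0 over all genes. Differences within 0.5 of 0 were found for 41 of the 54 members, or 75.9%, against 14481 of all genes, or 83.7%. Of the members, 36 were above 0, 16 below 0 and 2 had identical values on both arrays, against 7528 of all genes above 0, 7597 below 0 and 2180 identical. Over the 9392 genes that reached the median level, 3908 were above 0 and 5075 below, so the low genes leaned above 0. Of the 36 members under that level on both arrays, 24 were above 0 and 10 below. The split of the members can thus not be read as a shift of the chemokine system. The 36 members that stayed under the median level on both arrays had levels of 4.49 to 5.46 in the graft against 4.47 to 5.46 in the colon.

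**Figure D1:**
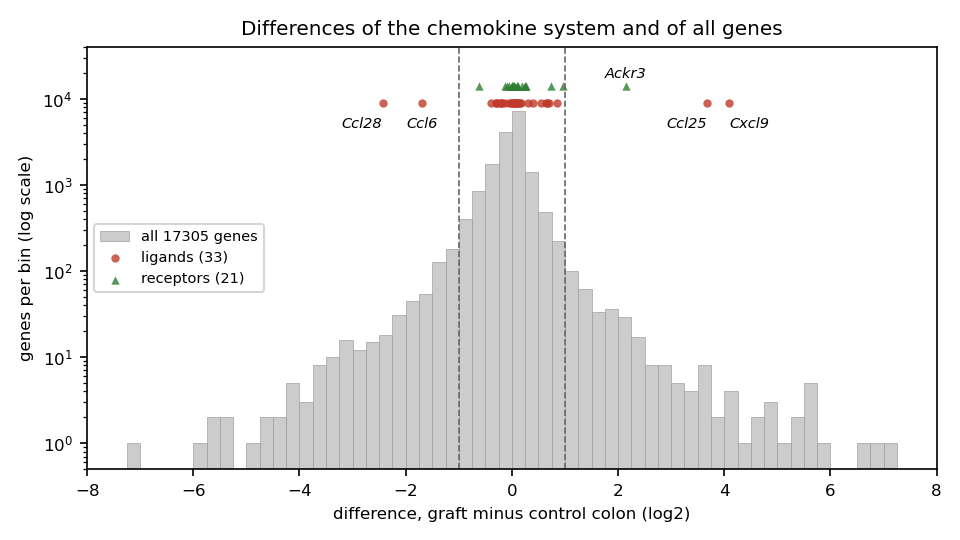
Differences between the graft and the control colon (log2, horizontal axis) for all 17305 genes as a histogram with a log vertical axis, and for the 33 ligands (red circles) and 21 receptors (green triangles) as points above it, whose height carries no value. Dashed lines mark 2-fold. Cxcl9, Ccl25 and Ackr3 lie beyond the right line, Ccl28 and Ccl6 beyond the left, and the other members between the lines.

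Ligands made by intestinal epithelium went in opposite directions. Ccl25 was at 8.97 in the graft against 5.30 in the colon, a difference of 3.67 or 12.7-fold, the 26th largest among all genes. The colon value lay under the median level. Ccl28 showed the reverse, with 6.55 in the graft against 8.99 in the colon, 5.41-fold lower in the graft. Both values of Ccl28 lay above the median level, and its difference of -2.44 was the 83rd from the lowest end of all genes. The graft thus had more Ccl25 signal and less Ccl28 signal than the colon. In such pooled tissue, fewer expressing cells and less RNA per cell cannot be told apart.

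The size of the Ccl25 difference depended on the probe set. The annotation lists 2 probe sets for the gene. The brighter one, used here, is annotated to the protein-coding mRNA, and the other, which is annotated to no RefSeq mRNA, was at 5.73 in the graft against 5.11 in the colon, a difference of 0.63 or 1.55-fold. Both differences were above 0, and averaging them gave a difference of 2.15 in place of 3.67. Ccl28 has 1 singly named probe set, so no such check was possible for it.

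The other epithelial ligands differed by less than 2-fold. Cxcl16, a transmembrane chemokine that also acts as a scavenger receptor, was at 6.68 in the graft against 5.84 in the colon, a difference of 0.84. Cx3cl1, the membrane-bound fractalkine, was at 7.05 in the graft against 7.02 in the colon. Of these membrane-anchored ligands, the Cxcl16 difference exceeded the SD between probe sets and the Cx3cl1 difference of 0.027 did not. Ccl20, the attractant of Ccr6-bearing lymphocytes and dendritic cells that is made over lymphoid follicles, was at 5.18 in the graft against 5.57 in the colon. Cxcl14, which is expressed by many epithelia, was at 5.43 in the graft against 4.89 in the colon and stayed under the median level on both arrays. Neither difference, -0.39 for Ccl20 and 0.55 for Cxcl14, reached 2-fold.

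Among the ligands induced by interferon, Cxcl9 stood apart from its relatives. All of them act on Cxcr3, a receptor of activated T cells and NK cells, and Cxcl9 is the one most dependent on interferon-gamma. Cxcl9 was at 8.88 in the graft against 4.79 in the colon, a difference of 4.09 or 17.0-fold, the 21st largest among all genes. Its colon value lay close to the 20th percentile of that array, 4.74. Cxcl10 was at 6.60 in the graft against 6.44 in the colon, and Cxcl11 was at 5.64 in the graft against 5.34 in the colon. Their differences of 0.16 and 0.30 were within the SD between probe sets, and Cxcl9 alone of the 3 reached 2-fold. Cxcl9, Cxcl10 and Cxcl11 follow each other among the members on chromosome 5, and RefSeq's C57BL/6J annotation lists Cxcl11 as a transcribed pseudogene. Cd74, the MHC class II invariant chain and a receptor of the cytokine Mif, was at 9.46 in the graft against 5.78 in the colon. It was taken from the list of other leukocyte attractants and their receptors. The part of interferon in the Cxcl9 and Cd74 values was not tested.

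**Figure D2:**
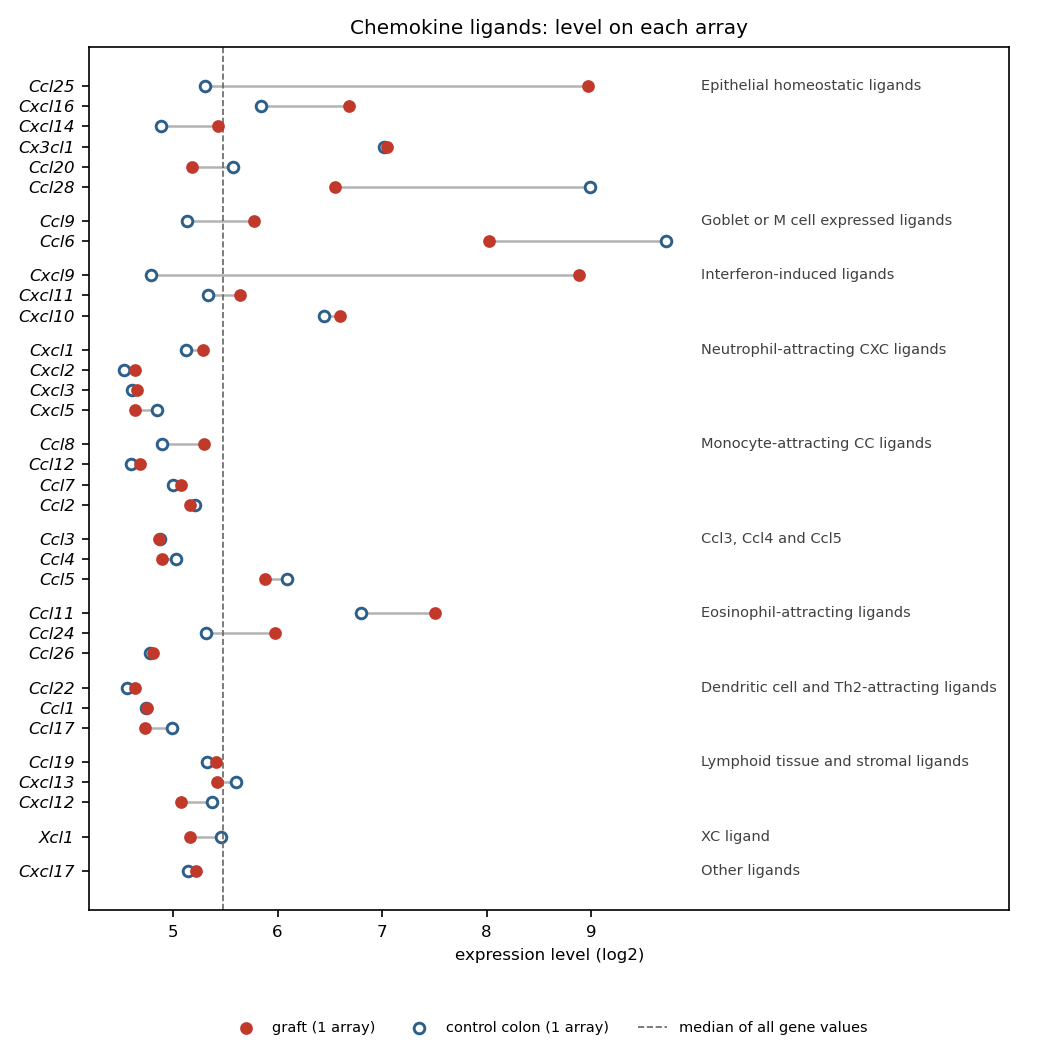
Level of each of the 33 ligands (log2, horizontal axis) on the graft array (filled red) and the control colon array (open blue), grouped by role, with a grey line joining both values and a dashed line at the median of all gene values, 5.48. Long lines are seen for Ccl25, Ccl28, Ccl6 and Cxcl9, while neutrophil-attracting, monocyte-attracting and lymphoid ligands sit near or left of the dashed line.

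Ccl6 and Ccl9 are closely related CC chemokines of rodents that act on Ccr1 and are made by myeloid cells and by intestinal epithelium. They are neighbours on chromosome 11. Ccl6 was at 8.02 in the graft against 9.72 in the colon, 3.24-fold lower in the graft. Ccl9 was at 5.77 in the graft against 5.13 in the colon, a difference of 0.64 in the other direction. Their shared receptor Ccr1 lay under the 20th percentile on both arrays, at 4.70 in the graft against 4.67 in the colon. Goblet cell markers were measured beside them: Muc2 had a difference of 0.14, Clca1 of 0.13 and Tff3 of -0.55, and Zg16 was 45.5-fold lower in the graft. The 6 M cell markers had a median difference of 0.15. Spib was 2.96-fold higher, Anxa5, Tnfaip2 and Sox8 had differences of 0.89, 0.17 and 0.14, and Pglyrp1 had a difference of -0.27. Gp2 lay under the 20th percentile on both arrays, at 4.66 in the graft against 4.57 in the colon. The part of these cells in the Ccl6 and Ccl9 values was not tested.

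The remaining genes of the Ccl5 to Ccl4 block on chromosome 11, which surrounds Ccl9 and Ccl6, were nearly equal. They encode attractants of T cells and macrophages. Ccl5, made by T cells including those within the epithelium, was at 5.88 in the graft against 6.09 in the colon. Ccl3 had 4.87 in the graft against 4.88 in the colon, and Ccl4 had 4.90 in the graft against 5.03 in the colon. The Ccl6 difference was thus not seen in its measured neighbours. Ccl3 and Ccl4 stayed under the median level on both arrays, so a lower level in the graft may not be detectable in them.

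Ligands that attract neutrophils and monocytes were low in both samples. The neutrophil-attracting ligands Cxcl1, Cxcl2, Cxcl3 and Cxcl5 act on Cxcr2, and all 4 stayed under the median level, at 4.64 to 5.29 in the graft against 4.53 to 5.13 in the colon. Cxcl1 had a difference of 0.16, and Cxcl5, which is made by intestinal epithelium, of -0.21. The monocyte-attracting ligands Ccl2, Ccl7, Ccl8 and Ccl12 were at 4.69 to 5.30 in the graft against 4.59 to 5.21 in the colon. Ccl8 had the largest difference of these 4, 0.40. This was within the SD between probe sets, 0.48, but exceeded the 0.34 for a single probe set. The other ligands of both groups had differences smaller in size than 0.34. All of these ligands stayed under the median level, where the SD may not hold.

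Of the 3 eosinophil attractants, Ccl11 and Ccl24 reached the median level. Ccl11, or eotaxin, which is made by stromal and epithelial cells and acts on Ccr3, was at 7.50 in the graft against 6.80 in the colon, a difference of 0.70. Ccl24, an eotaxin made largely by macrophages, was at 5.98 in the graft against 5.32 in the colon, a difference of 0.66. Ccl26 was at 4.81 in the graft against 4.78 in the colon. Ccl11 and Ccl24 exceeded the SD between probe sets without reaching 2-fold. Their receptor Ccr3 lay under the 20th percentile on both arrays, at 4.56 in the graft against 4.47 in the colon, and the mast cell and eosinophil markers measured, 5 of 7, had levels of 4.51 to 5.68 in the graft against 4.40 to 5.16 in the colon. Siglecf, a surface receptor of eosinophils, was at 5.68 in the graft against 5.16 in the colon, a difference of 0.52. The granule gene Prg2 had a difference of 0.26, and the granule gene Epx, under the 20th percentile on both arrays, of -0.050. The mast cell proteases Mcpt1 and Mcpt2 were under that percentile on both arrays as well. The part of these cells in the Ccl11 and Ccl24 values was not tested.

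The singly named ligands of lymphoid tissue and stroma differed little. The Ccl21 copies, whose probe sets carry several symbols, had differences of -0.49 to -0.45 and are given under the other observations. Cxcl13, the B cell attractant of follicles, was at 5.42 in the graft against 5.60 in the colon. Cxcl12, a stromal ligand of Cxcr4 and Ackr3, was at 5.08 in the graft against 5.37 in the colon. Ccl19, which attracts Ccr7-bearing cells to lymph nodes, was at 5.41 in the graft against 5.33 in the colon, and its 5 probe sets gave differences of 0.088 to 0.15, although near-identical gene copies make its signal uncertain as that of a single gene. The dendritic cell and Th2-attracting ligands Ccl1, Ccl17 and Ccl22 were at 4.63 to 4.75 in the graft against 4.56 to 4.99 in the colon. Xcl1, a ligand made by NK and CD8 T cells, was at 5.16 in the graft against 5.46 in the colon, and Cxcl17, a mucosal chemokine, was at 5.22 in the graft against 5.14 in the colon.

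The receptors were mostly low, and 1 of 21 differed by 2-fold in either direction. That is 4.76% of the receptors, close to the 5.02% of all genes that did so. Ackr3, an atypical receptor that takes up Cxcl12 and signals through arrestins, was at 7.51 in the graft against 5.37 in the colon, a difference of 2.14 or 4.42-fold and the 87th largest among all genes. Its colon value lay just under the median level. Cxcr4, the classical receptor of the same ligand, was at 6.02 in the graft against 5.29 in the colon, a difference of 0.73. Of both receptors of Cxcl12, Ackr3 thus reached 2-fold, whereas the Cxcr4 difference exceeded the SD between probe sets without reaching it. Cxcl12 itself had a difference of -0.29.

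The other atypical receptors did not share the Ackr3 difference. Ccrl2, which binds chemerin and presents it to leukocytes, was at 5.11 in the graft against 5.73 in the colon, a difference of -0.62. Ackr1, the Duffy receptor of endothelium and red cells, was at 4.78 in the graft against 4.83 in the colon. Ackr2, a scavenger of inflammatory CC chemokines, was at 4.92 in the graft against 4.66 in the colon. Ackr4, which binds Ccl19, Ccl21 and Ccl25, was at 5.01 in the graft against 4.97 in the colon. These last 3 stayed under the median level on both arrays.

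**Figure D3:**
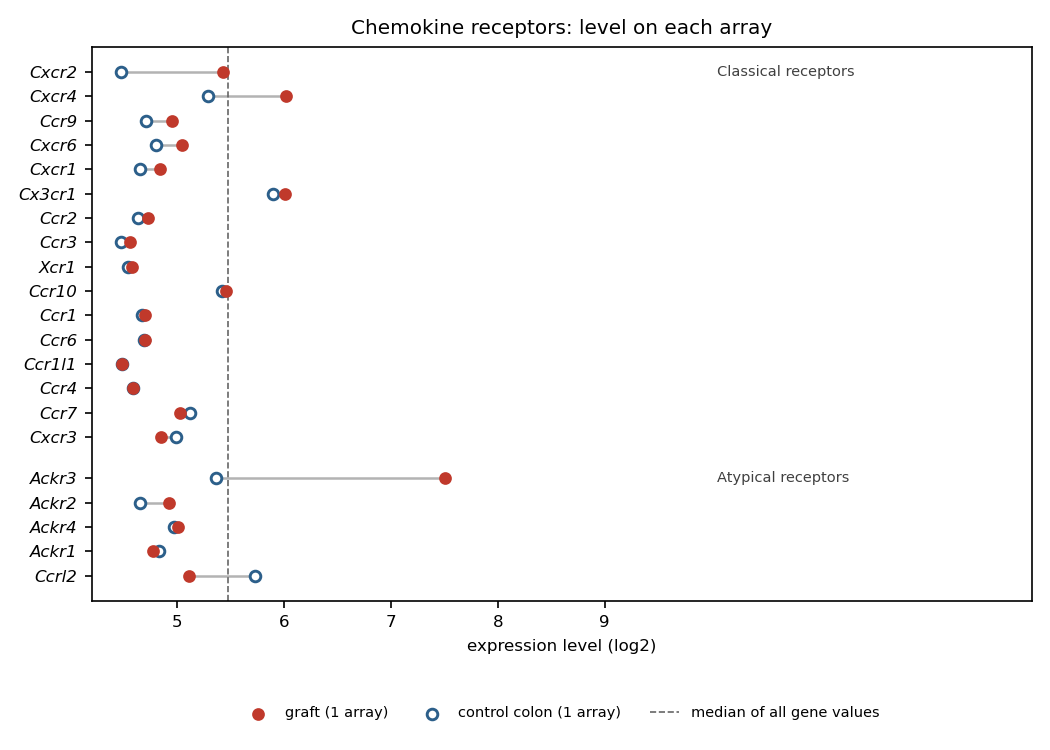
Level of each of the 21 receptors (log2, horizontal axis) on the graft array (filled red) and the control colon array (open blue), with a dashed line at the median of all gene values, 5.48. Ackr3, Cxcr4, Cx3cr1 and Ccrl2 reach the dashed line on at least 1 array, and the other 17 stay left of it.

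Classical receptors are carried mainly by leukocytes. Cx3cr1, a receptor of intestinal macrophages, was at 6.01 in the graft against 5.90 in the colon. Cxcr2, the neutrophil receptor for Cxcl1 and Cxcl5, was at 5.43 in the graft against 4.47 in the colon, with the colon value under the 20th percentile. Its difference of 0.96 was close to 2-fold, but both levels were under the median. Cxcr1 was at 4.84 in the graft against 4.65 in the colon. Ccr1, Ccr2, Ccr3, Ccr4, Ccr6, Xcr1 and Ccr1l1 lay under the 20th percentile on both arrays, and Ccr4 and Ccr1l1 each had the same value in graft and colon. Signal from these 7 receptors cannot be separated from background.

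Leukocyte markers were measured beside the receptors. The 5 pan-leukocyte markers were at 5.04 to 6.17 in the graft against 4.90 to 5.64 in the colon, with 0 differing by 2-fold and a median difference of 0.14. Ptprc and Lcp1 had differences of 0.78 and 0.81, Coro1a and Laptm5 of 0.14 and 0.11, and Cd53 of -0.36. All 9 T and NK cell markers stayed under the median level, at 4.75 to 5.40 in the graft against 4.61 to 5.31 in the colon. The 10 macrophage and dendritic cell markers were at 4.76 to 6.89 in the graft against 4.71 to 7.01 in the colon. Of these, 0 differed by 2-fold, where 5.02% of all genes did. Their median difference was 0.25, with 7 above 0 and 3 below. Tyrobp, Fcer1g, C1qb and Cd68 had differences of 0.78, 0.75, 0.73 and 0.55, and Adgre1, Lyz2 and C1qc of -0.23, -0.12 and -0.052. Of 7 neutrophil markers measured, S100a8 was 4.04-fold and S100a9 2.56-fold higher in the graft, whereas Csf3r, Mpo, Ngp, Camp and Ltf were at 4.53 to 4.95 in the graft against 4.44 to 4.95 in the colon. The 3 B cell markers measured were at 4.45 to 5.55 in the graft against 4.32 to 5.17 in the colon. The part of these cells in the Cxcl9, Cxcr2 and Cxcr4 values was not tested.

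Setting ligands beside their receptors showed that the large ligand differences had no counterpart in the receptors measured. Ccr9, the receptor of Ccl25, was at 4.95 in the graft against 4.70 in the colon, a difference of 0.25 beside 3.67 for the ligand. Ccr10, the receptor of Ccl28, was at 5.46 in the graft against 5.42 in the colon, a difference of 0.040 beside -2.44. Both receptors stayed under the median level on both arrays, so a difference in them may not be detectable at these levels.

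The receptors of Cxcl9, Cxcl16, Ccl20 and Ccl19 differed by less than the SD between probe sets. All of these receptors stayed under the median level on both arrays, where that SD may not hold and a difference may not be detectable. Cxcr3, the receptor of Cxcl9 and Cxcl10, was at 4.85 in the graft against 4.99 in the colon, a difference of -0.14 beside 4.09 for Cxcl9. Cxcr6, the receptor of Cxcl16 on T and NK cells, was at 5.05 in the graft against 4.80 in the colon. Ccr6, the receptor of Ccl20, was at 4.70 in the graft against 4.69 in the colon, and Ccr7, the receptor of Ccl19, was at 5.02 in the graft against 5.12 in the colon. Among the plasma cell markers, Igha, the IgA heavy chain made by cells that Ccl25 and Ccl28 attract, had 8.27 in the graft against 5.56 in the colon, 6.54-fold higher. Jchain, the joining chain of IgA, had 8.62 in the graft against 8.32 in the colon, and Mzb1, Tnfrsf17 and Sdc1 had differences of 0.49, -0.15 and -0.47. Sdc1 also stands in the ligand processing list below. Whether the Igha difference relates to Ccl25 or Ccl28 was not tested.

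**Figure D4:**
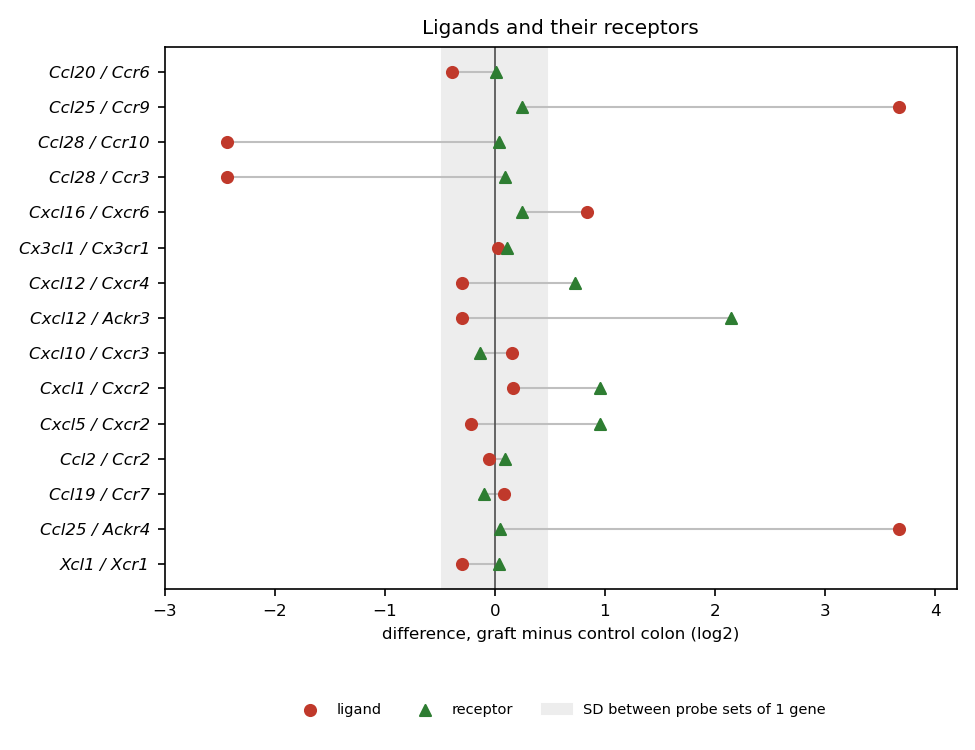
Differences between the graft and the control colon (log2) for ligands (red circles) and their receptors (green triangles), 1 pair per line, with a grey band of 1 SD between probe sets of a gene (0.48). The receptors of Ccl25 and Ccl28 lie inside the band while the ligands lie far outside it, and for Cxcl12 the receptors Ackr3 and Cxcr4 lie outside it and the ligand inside.

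Other genes of the pathway mostly differed by less than 2-fold. Of 24 measured genes for receptor signalling and desensitization, 1 was 2-fold higher and 1 lower, with a median difference of 0.22. In either direction that is 8.33%, where 5.02% of all genes and 9.22% of those that reached the median level differed by 2-fold. Rac2, the Rac GTPase of blood cells, had 7.29 in the graft against 5.37 in the colon, 3.77-fold higher. Gnai1, an inhibitory G protein subunit, had 5.31 in the graft against 6.62 in the colon, 2.48-fold lower. The main leukocyte subunit Gnai2 had a difference of 0.30. The arrestins Arrb1 and Arrb2, which uncouple receptors and carry the signal of Ackr3, had differences of 0.41 and 0.38. Pik3cg, the kinase activated by G protein beta-gamma subunits, had a difference of 0.80.

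Of 9 measured genes for ligand processing and presentation, 1 was 2-fold higher, with a median of 0.28. The 1 gene is 11.1%, where 5.02% of all genes and 9.22% of those that reached the median level differed by 2-fold in either direction. Of the 9 genes, 8 reached that level. That gene was Mmp7, a metalloproteinase stored in Paneth cell granules that sheds chemokine-bearing syndecan, at 9.02 in the graft against 4.80 in the colon. Dpp4, the brush-border peptidase that trims Cxcl9, Cxcl10 and Cxcl12, had a difference of 0.30. Adam10, which releases Cx3cl1 and Cxcl16 from the membrane, had a difference of 0.28, and Adam17 of -0.51. The syndecan Sdc1 had a difference of -0.47.

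Among 12 measured genes for other leukocyte attractants and their receptors, 2 were 2-fold higher and 1 lower, and the median difference was 0.11. In either direction that is 25%, where 5.02% of all genes and 9.22% of those that reached the median level differed by 2-fold. Besides Cd74, Alox5, the first enzyme of leukotriene synthesis, had 6.70 in the graft against 4.82 in the colon, 3.68-fold higher. Saa1, an acute-phase protein that attracts leukocytes through formyl peptide receptors, was lower, at 5.51 in the graft against 11.0 in the colon. Mif had a difference of 0.89. The leukotriene B4 receptor Ltb4r1 had a difference of 0.80 without reaching 2-fold, and the chemerin gene Rarres2 had a difference of -0.46. Of 9 measured NF-kB response genes, 8 reached the median level and 1 was 2-fold higher, or 11.1%, with a median of -0.10. In either direction 5.02% of all genes and 9.22% of those that reached the median level differed by 2-fold. Nfkbiz was 2.36-fold higher, Zc3h12a had a difference of 0.97 and Nfkbia of -0.61. The platelet chemokine Pf4 was at 5.24 in the graft against 5.52 in the colon.

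Stromal markers were compared because several ligands are made outside the epithelium. The 7 fibroblast markers were at 5.11 to 7.37 in the graft against 5.65 to 7.99 in the colon, with Lum 3.38-fold lower in the graft, 6 of the 7 differences below 0 and a median difference of -0.22. The 7 endothelial markers were at 4.54 to 6.15 in the graft against 4.51 to 6.20 in the colon, with Egfl7 2.34-fold higher. Prox1 had a difference of 0.40, the other 5 differences were below 0, and the median difference was -0.092. The part of stromal cells in the Ccl11, Cxcl12 and Ackr3 values was not tested.

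**Figure D5:**
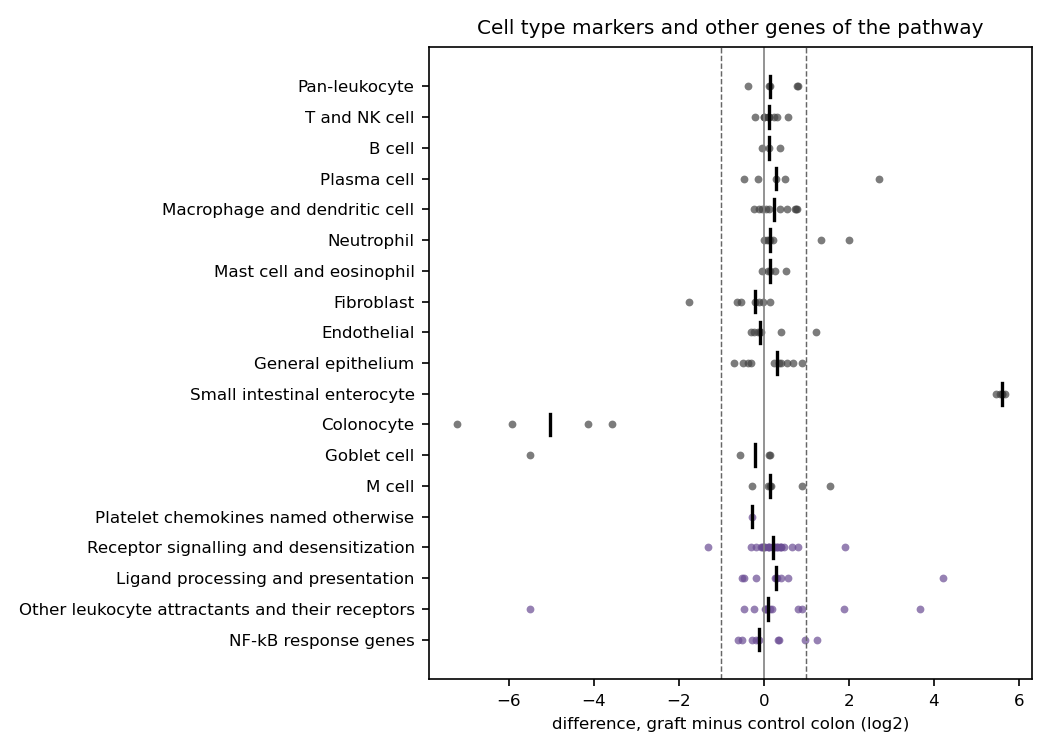
Differences between the graft and the control colon (log2, horizontal axis) for each measured gene (points) of the cell type marker lists (dark) and the other pathway lists (purple), with the list median as a black bar and dashed lines at 2-fold. Enterocyte markers lie far to the right and colonocyte markers far to the left, while the medians of all leukocyte lists and pathway lists lie between the dashed lines.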

How the data were processed

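Per the labels' protocols, 4.33 ng of total RNA was amplified as whole transcriptome, and the product carried a biotin label. Amplification of so little RNA can distort single transcripts. The deposited table has 24074 probe sets with a log2 value on each array. Neither background correction nor normalization by the authors is described in the labels used here. Their scale was inferred from the range of values, 4.19 to 13.4 for the graft and 4.22 to 13.5 for the colon. Whether arrays were centred is unknown. Names came from the platform annotation: 18904 had 1 symbol, 1330 several and 3840 none, and only the first kind was used for genes. The brightest probe set stood for a gene. All 54 members were found in RefSeq's table for GRCm38.p6, and 41 in its promoter table. The 2 arrays were compared without further normalization, by differences and counts at 2-fold, with pandas 2.3.3 and numpy 2.4.6, and the counting was tested on simulated data. Alternatives were the mean of probe sets, quantile and loess normalization, other filters, a floor and a stricter symbol rule. Members and lists were chosen with earlier results of these data known. Every member that reached the median level was named, the other members were named as partners or known gut chemokines or given by role. The number of arrays limits the precision.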

Additional observations from a re-analysis of the deposited data

Results flagged for a closer look

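A second probe set of Ccl25, which did not stand for the gene, also had more signal in the graft than in the colon, 5.73 against 5.11, a difference of 0.63. It was singled out because it lies outside the values used for the gene and exceeds the SD between probe sets of 1 gene, 0.48. It was the 1 unused singly named probe set of a member to do so. Only 2 members have several such probe sets, and the other unused ones all belong to Ccl19, so this says little. Among the probe sets shared by several genes, 1 of the Ccl21 copies also exceeded the SD, at -0.49. All 4 probe sets of these copies exceeded the smaller SD for a single probe set, 0.34.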

How the results depend on the processing

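No paired analysis was possible because each group has 1 array and no test was made. The 3 higher and 2 lower members were counted under all 7 alternatives, but most of these could not remove a member from the count. These members lay above the 75th percentile on at least 1 array and above the floor on both, so no filter or floor could remove them. The stricter symbol rule drops only Ccr1l1, which had identical values on both arrays. Among them the mean of probe sets could move only Ccl25. Only quantile and loess normalization could move all of their differences. The medians moved with the filter. Over the 18 members that reached the median level the median difference was 0.23 for all, 0.23 for ligands and 0.42 for the 4 receptors. Over all genes that reached it, the median difference was -0.047. The filter takes the higher value: Ccl25, Cxcl9, Ackr3, Cxcr4, Ccl24, Ccl9 and Cxcl11 reached the level only in the graft. Ccl20, Ccrl2 and Cxcl13 reached it only in the colon. So these medians depend on the array through which a member passed. Without a filter, over all 54 members, the medians were 0.060, 0.068 and 0.044. With a filter at the 75th percentile, 6.53, 9 members remained, and the medians were 0.70, 0.43 and 2.14, the last from Ackr3 alone. Fewer members with larger values are counted there by construction. Of 72 differences recomputed for the 18 named members under 4 alternatives, 71 moved by less than 0.48, 0 changed sign and 0 crossed 2-fold. The exception was Ccl25, at 2.15 with the mean of its probe sets. Many of the 72 could not move under the mean or the floor. The other named members have 1 probe set each, and all 18 lay above the floor on both arrays. So the 71 speak mainly for quantile and loess normalization. Quantile and loess normalization shifted the median of all genes by less than 0.01. Low levels limit what can be seen: 11 members lay under the 20th percentile on both arrays. Under it lay 13 of 54 members in the graft and 15 in the colon, against 3130 and 3122 of all 17305 genes.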

Other observations

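Some chemokine probe sets were annotated to several genes and were left out of the results above. The 4 probe sets shared by Ccl21a, Ccl21b, Ccl21c and related copies, which encode a lymph node and lymphatic ligand of Ccr7, were at 5.96 to 5.98 in the graft and 6.43 to 6.45 in the colon, with differences of -0.49 to -0.45. The 3 probe sets shared by Ccl27a, Ccl27b and related copies, which encode an epithelial ligand of Ccr10, were at 5.72 to 5.86 in the graft and 5.72 to 5.99 in the colon, and 2 of them had identical values on both arrays. Probe sets of the same copies measure nearly the same sequence and are not independent.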
